A study of Homo sapiens with 24 samples.

Results

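CCNA2, CCNB1, CCNE1 and CCNF encode cyclins A2, B1, E1 and F, and PLK1 encodes polo-like kinase 1. These 5 genes, of 14884 named on the arrays and 10641 tested, were taken by their names, and each has a single array row. They had been picked from earlier results of these arrays because their signal was lower under metformin in each of 4 lines. Their metformin differences are therefore a description here and carry no test. The arrays measured messenger RNA in cultures of HL60, KG1a, MOLM14 and U937, 4 established lines of human acute myeloid leukaemia kept in exponential growth. Each line was left untreated or given 10 mM metformin, a biguanide that the study's design calls an inhibitor of complex I, for 24 h. Each of the 8 groups held 3 Affymetrix arrays, lettered A to C, and the labels do not say whether they came from separate cultures, so every SD and p measures the spread between these arrays only. The labels class untreated KG1a and MOLM14 as high in oxidative phosphorylation (OXPHOS), and place HL60, U937 and all treated arrays with the low class.

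Cyclins are the regulatory subunits that switch cyclin-dependent kinases (CDKs) on at set points of the cell cycle. Cyclin E1 with CDK2 drives entry into S phase, cyclin A2 serves S phase and G2, and cyclin B1 with CDK1 drives entry into mitosis. PLK1 is a kinase of mitotic entry, spindle assembly and exit, and cyclin F, which activates no CDK, is the substrate receptor of a ubiquitin ligase. CCNE1 is a textbook target of E2F factors at the G1/S transition. CCNA2, CCNB1 and PLK1 are induced later, through CCAAT boxes bound by NF-Y and cell cycle genes homology regions (CHR) bound by MuvB complexes. Because RNA came from whole cultures, fewer cells in a phase and less RNA per cell cannot be told apart.

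The promoters are shown because matches to the elements just named are spread unevenly over the 5 genes. CCNE1 holds neither CCAAT nor the 3 CHR spellings searched. RefSeq (GRCh38.p14) places CCNA2 on the minus strand of chromosome 4, CCNB1 on chromosome 5, CCNE1 on chromosome 19, and CCNF and PLK1 on chromosome 16, the last 4 on the plus strand. The 150 bases before each annotated start lie at chr4:121823884-121824033, chr5:69167000-69167149, chr19:29811841-29811990, chr16:2429297-2429446 and chr16:23678739-23678888, in the order printed. They read 5′ to 3′ along the gene, with capitals for matches to CCAAT, to the CHR in any of 3 spellings (TTTGAA and its variants CTTGAA and also TTCGAA), to the similar hexamer TTTAAA and to the cyclic AMP response element TGACGTCA.
CCNA2: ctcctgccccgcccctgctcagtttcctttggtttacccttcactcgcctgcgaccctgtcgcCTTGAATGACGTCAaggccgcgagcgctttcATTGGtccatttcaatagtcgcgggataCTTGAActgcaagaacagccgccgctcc
CCNB1: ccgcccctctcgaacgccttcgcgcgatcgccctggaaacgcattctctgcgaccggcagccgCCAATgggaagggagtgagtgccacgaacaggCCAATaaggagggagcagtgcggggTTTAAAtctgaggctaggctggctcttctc
CCNE1: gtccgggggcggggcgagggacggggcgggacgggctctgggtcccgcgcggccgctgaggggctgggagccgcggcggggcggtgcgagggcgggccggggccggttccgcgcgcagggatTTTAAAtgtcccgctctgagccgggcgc
CCNF: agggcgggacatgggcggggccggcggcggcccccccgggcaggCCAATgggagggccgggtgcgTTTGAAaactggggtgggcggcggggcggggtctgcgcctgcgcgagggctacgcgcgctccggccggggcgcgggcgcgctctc
PLK1: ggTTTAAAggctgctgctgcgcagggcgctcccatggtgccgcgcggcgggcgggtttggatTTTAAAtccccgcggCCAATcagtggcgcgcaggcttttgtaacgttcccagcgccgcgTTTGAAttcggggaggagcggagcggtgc

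Over the 250 bases before the start, on both strands, CCAAT was present in 4 of the 5 genes and in 32.0% of all 35116 RefSeq windows. CCNF held it at 4 places and CCNB1 at 2, and CCNE1 held none. Any of the 3 CHR spellings was present in CCNA2, CCNF and PLK1, and in 21.9% of all windows. It began 28 bases before the start in CCNA2 and 29 in PLK1, with a CCAAT box further out in both. CCNA2 held another match at 87, beyond its CCAAT box, and CCNF held matches at 85 and 233. TTTAAA, counted apart from the CHR, was present in CCNB1 (30 bases before the start), CCNE1 (28) and PLK1 (148 and 88), and in 11.3% of all windows. In CCNB1 both CCAAT boxes lay further out. Whether TTTAAA acts as a CHR in these genes was not tested. CCNA2 also held TGACGTCA, 81 bases before its start, which 1.65% of all windows have. The CCNE1 window was the richest in G and C, at 81.2% against a median of 58.0% over all windows, and held 7 GC boxes (GGGCGG). GC boxes were present in all 5 genes, in 42.6% of all windows and in 60.8% of the 11365 windows of tested genes. Of those 11365, 33.0% had CCAAT, 16.8% a CHR spelling, 8.17% TTTAAA and 2.29% TGACGTCA. Of 4 E2F spellings (TTTCCCGC, or else TTTCGCGC, or else TTTGCCGC, or else TTTGGCGC), none was in these 5 windows, against 2.79% of all and 3.97% of those of tested genes. None of the 35 matches overlapped another. A match is a string of letters and not a binding site, and a missing one says only that those letters are not in this window.

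**Figure D1:**
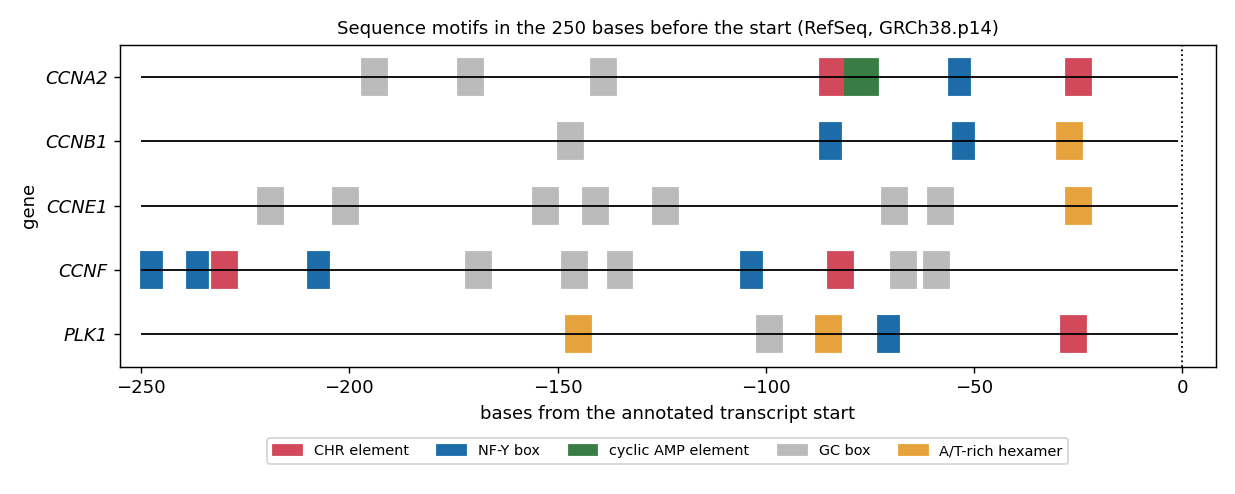
Motif matches in the 250 bases before the annotated start of each gene, both strands, drawn to scale with distance in bases on the horizontal axis. Matches to the letters of the NF-Y box (blue) are in 4 genes and not in CCNE1, and matches to the CHR (red) are in CCNA2, CCNF and PLK1.

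All values are log2 signals, and a difference is the mean of the treated arrays minus that of the controls, ± its standard error (SE) from 1 limma fit of all 24 arrays. Lineage markers were checked in all groups. CD34 reached 11.24 in untreated KG1a and lay at or under 3.61 in the other lines, while MPO, the granule enzyme, was at 12.48 in untreated HL60 and 8.93 in untreated MOLM14. Epithelial EPCAM and KRT19 lay at or under 4.04, near the median of all rows (4.02). Some maturation markers had other means under metformin: MPO was 7.62 in treated MOLM14, LYZ 6.77 against 7.26 in HL60, and CSF3R 5.00 against 4.36 in HL60. Their part in the results was not tested. Correlations within groups lay between 0.983 and 0.993. The arrays farthest from their group means were control C of HL60 and, in U937, control C and metformin A; these are the 3 arrays that stand apart. The 5 genes lay well above 4.02 in every group, the lowest group mean being 6.68.

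CCNE1, the G1/S cyclin, had the largest metformin difference of the 5 genes in HL60 and in U937. In U937 it read 8.05, 8.04 and 7.89 in the controls and 7.05, 7.17 and 7.29 under metformin. In HL60 it read 8.72, 8.74 and 8.67 against 7.93, 8.08 and 7.93. In both lines all treated arrays lay at least 0.59 under the lowest control. The differences were -0.83 ± 0.08 in U937, a level 43.6% lower, and -0.73 ± 0.08 in HL60, a level 39.7% lower. KG1a held the highest CCNE1 of the series, at 9.09, 9.20 and 9.17 untreated and 8.68, 8.88 and 8.84 treated. MOLM14 read 7.89, 7.82 and 7.87 against 7.47, 7.43 and 7.66. In these lines the groups lay closer together, with differences of -0.35 ± 0.08 in KG1a and -0.34 ± 0.08 in MOLM14. Treated KG1a (mean 8.80) and untreated HL60 (mean 8.71) had overlapping arrays, and both lay above all arrays of MOLM14 and U937.

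CCNA2, the S and G2 cyclin, had its largest difference in HL60. Its values there were 10.91, 10.85 and 10.81 untreated and 10.38, 10.28 and 10.26 treated, a difference of -0.55 ± 0.07. The MOLM14 arrays read 10.41, 10.26 and 10.32 against 10.02, 9.93 and 9.93, a difference of -0.37 ± 0.07. In both lines every treated array lay under every control. KG1a read 10.53, 10.63 and 10.58 against 10.24, 10.30 and 10.33, a difference of -0.29 ± 0.07. The smallest of all 20 differences was that of CCNA2 in U937, -0.23 ± 0.07, from 10.56, 10.60 and 10.54 to 10.24, 10.40 and 10.38. There the highest treated array lay 0.14 under the lowest control.

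CCNB1, the mitotic cyclin, had differences between -0.25 and -0.39. HL60 read 8.47, 8.44 and 8.48 against 8.12, 8.09 and 8.21, and KG1a 8.92, 8.95 and 8.86 against 8.60, 8.66 and 8.46. MOLM14 read 8.53, 8.61 and 8.65 against 8.13, 8.31 and 8.19. These gave differences of -0.32, -0.34 and -0.39 (each ± 0.08), with no overlap between treated and control arrays. U937 read 8.86, 8.80 and 9.01 against 8.55, 8.61 and 8.76, a difference of -0.25 ± 0.08 in which the closest arrays were 0.05 apart. Without the 3 arrays that stand apart, 2 of them from U937, this difference was -0.15.

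PLK1, the kinase that acts beside cyclin B1 at mitotic entry, had its largest difference in MOLM14. That line read 10.09, 10.06 and 10.08 untreated and 9.68, 9.59 and 9.55 treated, a difference of -0.47 ± 0.08 and a level 27.8% lower. KG1a read 10.27, 10.07 and 10.11 against 9.63, 9.85 and 9.83 (-0.38 ± 0.08). HL60 and U937 showed less, HL60 with 9.87, 9.90 and 9.99 against 9.64, 9.58 and 9.52 (-0.34 ± 0.08). In U937 the arrays read 10.29, 10.42 and 10.33 against 10.05, 10.12 and 10.07 (-0.26 ± 0.08). Treated arrays lay under the controls in all 4 lines.

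CCNF, which encodes the ubiquitin ligase receptor cyclin F, had differences of -0.47 or more in size in each line. HL60 read 7.44, 7.59 and 7.23 against 6.72, 6.91 and 6.69 (-0.64 ± 0.11), and U937 7.90, 8.13 and 8.02 against 7.29, 7.40 and 7.54 (-0.60 ± 0.11). KG1a read 8.07, 7.96 and 7.88 against 7.21, 7.66 and 7.48 (-0.52 ± 0.11). MOLM14 read 7.12, 7.11 and 7.23 against 6.69, 6.60 and 6.75 (-0.47 ± 0.11). CCNF varied most between arrays of a group, with an SD of 0.23 in treated KG1a, where array A lay lowest. Its treated arrays lay under its controls in all 4 lines, as did those of 1.76% of all genes. CCNF was chosen from these values, so nothing is read from this.

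**Figure D2:**
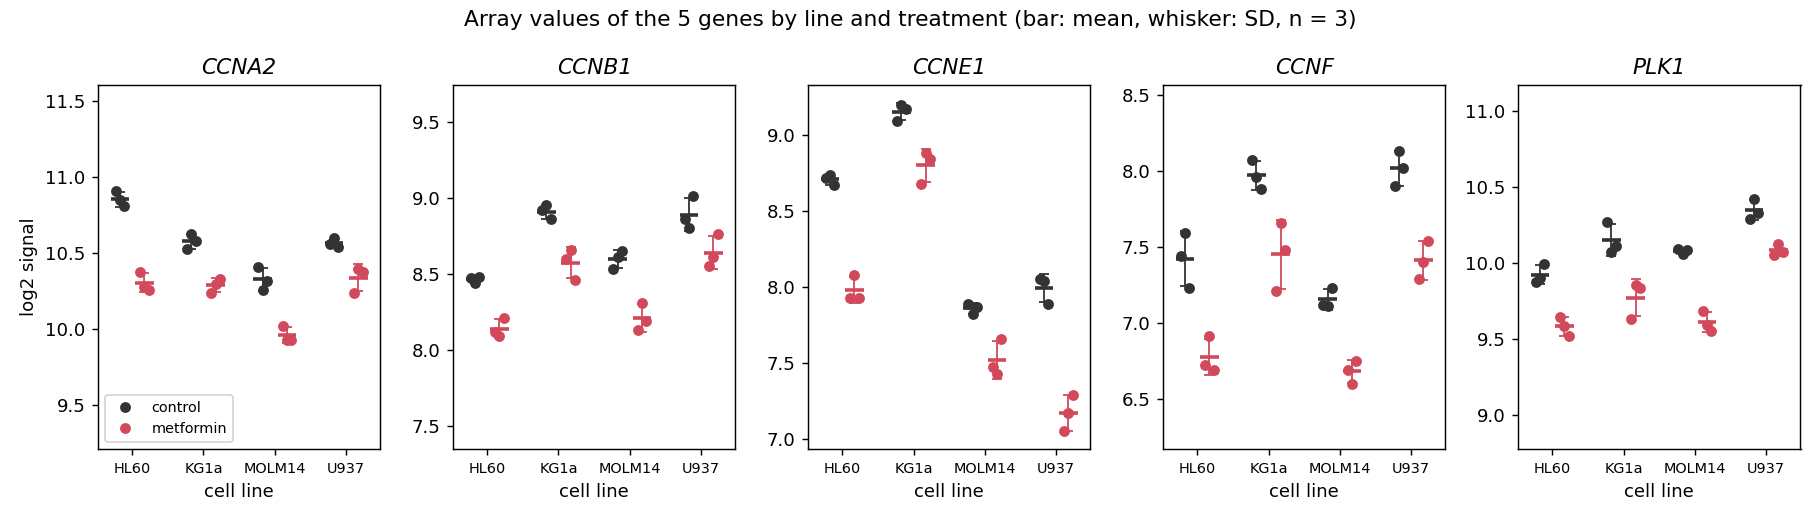
Log2 signal (vertical axis, 2.4 units high in each panel) of each gene in every array by line (horizontal axis), with group mean (bar) and SD (whisker), n = 3; controls are black and metformin arrays red. In each line and gene all red points lie under all black points, and CCNE1 shows the widest spread between lines.

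Across genes and lines, all 20 differences were below 0, as were those of 50.0% of all genes in HL60, 56.4% in KG1a, 49.0% in MOLM14 and 51.4% in U937. None of the 20 had overlapping arrays. The genes were chosen from these values, so nothing is read from the counts: 1.76% of the 10641 genes had lower, non-overlapping treated arrays in all 4 lines. Per line that share was 16.0% in HL60, 13.7% in KG1a, 13.0% in MOLM14 and 16.3% in U937. Averaged over lines, the differences were -0.56 ± 0.04 for CCNE1, -0.56 ± 0.05 for CCNF, -0.36 ± 0.04 for PLK1 and CCNA2, and -0.33 ± 0.04 for CCNB1. The order of lines was not the same for each gene. HL60 and U937 had the larger differences for CCNE1 and CCNF, and MOLM14 and KG1a for CCNB1 and PLK1, though for CCNB1 all lines lay within 0.14. For CCNF, U937 (-0.60) and KG1a (-0.52) lay closer together than the SE of either (0.11). So did KG1a (-0.38) and HL60 (-0.34) for PLK1 (SE 0.08). For CCNA2, HL60 had the largest and U937 the smallest. These orders are read from the values that chose the genes and were not tested.

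**Figure D3:**
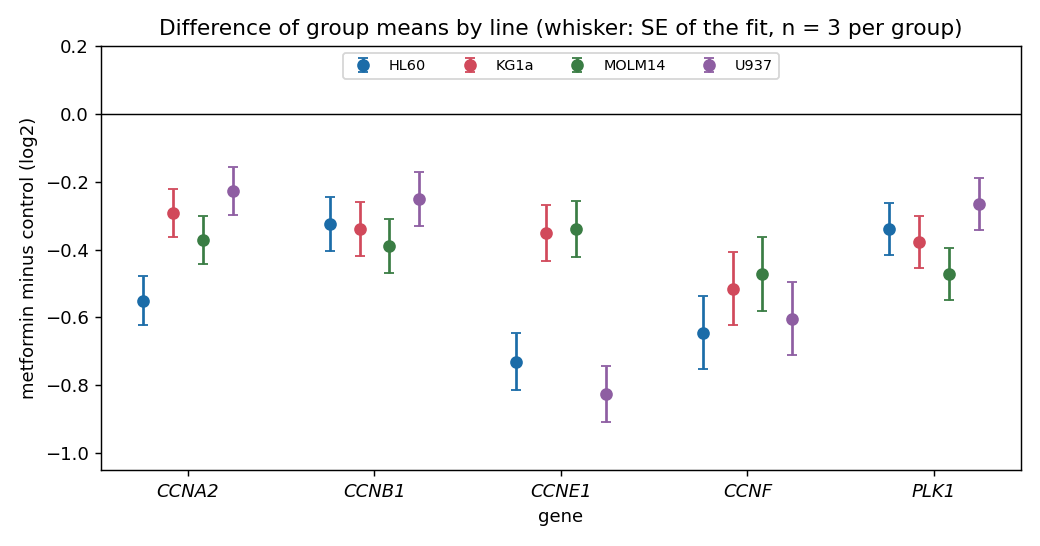
Metformin minus control (log2, vertical axis) for each gene (horizontal axis) and line (colour), with the SE of the limma fit, n = 3 per group. CCNE1 lies at -0.73 and -0.83 in HL60 and U937 and at -0.35 and -0.34 in KG1a and MOLM14. The 4 lines lie within 0.21 of each other for PLK1, CCNB1 and CCNF.

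The untreated level of each gene by line is another contrast, which the choice of genes did not use. A moderated F test (limma, Benjamini-Hochberg over 10641 genes) found a difference between untreated lines for all 5 genes, as it did for 83.2% of genes. Between pairs of lines the share of all genes that differed was 57.4% for HL60 and KG1a, 56.6% for HL60 and MOLM14, 55.9% for HL60 and U937, 61.1% for KG1a and MOLM14, 61.9% for KG1a and U937, and 55.7% for MOLM14 and U937. CCNE1 spanned most, from a mean of 7.86 ± 0.04 (SD, n = 3) in MOLM14 through 7.99 ± 0.09 in U937 and 8.71 ± 0.03 in HL60 to 9.15 ± 0.06 in KG1a. That is a 2.45-fold range (adjusted p = 4.24e-13, limma). Only the neighbours MOLM14 and U937 did not differ beyond their spread (adjusted p = 0.182, limma). KG1a and MOLM14, which share the high OXPHOS label, were thus at the opposite ends of CCNE1 and differed by 1.29 ± 0.08 (adjusted p = 7.74e-13, limma).

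CCNF followed another order, with U937 (8.01 ± 0.11) and KG1a (7.97 ± 0.10) above HL60 (7.42 ± 0.18) and MOLM14 (7.15 ± 0.07), a 1.82-fold range (adjusted p = 6.73e-08, limma). U937 against KG1a did not pass (adjusted p = 0.742, limma), and HL60 exceeded MOLM14 by 0.27 ± 0.11 (adjusted p = 0.0393, limma). The latter call was lost with quantile normalization (0.22, adjusted p = 0.0649, limma), with centred arrays (0.065), with no filter (0.0509) and without any of 4 single arrays, with the lowest value, 0.18, without HL60 control B. CCNB1 was highest in KG1a (8.91 ± 0.05) and U937 (8.89 ± 0.11), a pair that did not pass (adjusted p = 0.837, limma). MOLM14 (8.60 ± 0.06) and HL60 (8.46 ± 0.02) were lower, and this pair also did not pass (adjusted p = 0.159, limma). Their arrays did not overlap, though, with 8.53 to 8.65 in MOLM14 and 8.44 to 8.48 in HL60. Each of the other pairs passed for CCNB1, whose range was 1.37-fold.

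CCNA2 was highest in HL60 (10.86 ± 0.05), followed by KG1a (10.58 ± 0.05), U937 (10.57 ± 0.03) and MOLM14 (10.33 ± 0.08). KG1a against U937 did not pass (adjusted p = 0.882, limma). HL60 exceeded KG1a by 0.27 ± 0.07 (adjusted p = 0.00173, limma), or by 0.15 with quantile normalization (adjusted p = 0.0763, limma), and MOLM14 was lower than U937 (MOLM14 minus U937 -0.24 ± 0.07, adjusted p = 0.00606, limma). PLK1 had the narrowest range, 1.35-fold, from HL60 (9.92 ± 0.06) through MOLM14 (10.08 ± 0.02) and KG1a (10.15 ± 0.11) to U937 (10.35 ± 0.07). HL60 against MOLM14 (adjusted p = 0.0878, limma) and MOLM14 against KG1a (0.433) did not pass, although the arrays of HL60 (9.87 to 9.99) all lay under those of MOLM14 (10.06 to 10.09). KG1a was lower than U937 (KG1a minus U937 -0.20 ± 0.08, adjusted p = 0.0269, limma). That call was lost with quantile normalization (adjusted p = 0.119, limma) and without KG1a control B (0.118), KG1a control C (0.0814) or U937 control B (0.114), all adjusted p of limma. With quantile normalization KG1a instead exceeded MOLM14 (0.19, adjusted p = 0.0378, limma), and with a trend in the moderation HL60 lay under MOLM14 (adjusted p = 0.0349, limma).

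Between the OXPHOS classes, 2 of the 5 genes differed in the untreated arrays, against 61.9% of all genes. CCNA2 was lower in KG1a and MOLM14 than in HL60 and U937 (high minus low -0.26 ± 0.05, adjusted p = 9.05e-05, limma). CCNE1 was higher by 0.15 ± 0.06 (adjusted p = 0.0273, limma), a mean of the highest and the lowest line. The CCNE1 call was lost without HL60 control C (adjusted p = 0.0505), KG1a control B (0.0585), KG1a control C (0.0501), MOLM14 control A (0.0533) or U937 control C (0.076), and without the 3 arrays that stand apart (0.12, adjusted p = 0.0994), all from limma. CCNF differed by -0.16 ± 0.08 (adjusted p = 0.0813, limma), and by -0.20 without HL60 control C, which passed (0.0245), as it did without the 3 arrays (0.0324). CCNB1 differed by 0.08 ± 0.06 (adjusted p = 0.241) and PLK1 by -0.02 ± 0.05 (adjusted p = 0.754), both limma.

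The 5 genes covaried in different ways at different scales. Over the 24 arrays, levels of CCNB1, CCNF and PLK1 correlated at r = 0.83 to 0.90, and CCNE1 with PLK1 at 0.09. With each line's mean subtracted, all 10 pairs had r between 0.78 and 0.93, which rests on the treated and control split that chose them. With each group's mean subtracted, r ran from -0.22 (CCNB1 with PLK1) to 0.62 (CCNE1 with CCNF). The points of each correlation share arrays and scaling, so these are descriptions.

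Among tested genes other than CCNA2, CCNB1, CCNE1, CCNF and PLK1, the nearest patterns over the 24 arrays, with line means subtracted, differed by gene. For CCNA2 they were the cell cycle transcription factors MYBL2 (r = 0.97) and E2F8 (0.96) and the thymidylate enzyme TYMS (0.95). For PLK1 they were the replicative helicase subunit MCM7 (0.92), the mitochondrial import chaperone TIMM13 (0.90) and GTSE1 (0.90), a protein of G2 and S phase. CCNB1 was nearest to COMMD9 (0.90), the mitotic kinesin KIFC1 (0.87) and E2F8 (0.87). CCNE1 was nearest to the heat shock protein HSPH1 (0.97), the splicing factor HNRNPM (0.96) and LRRC59 (0.96), and CCNF to LRRC59 (0.95), the RNA-binding protein KHSRP (0.94) and HSPH1 (0.94). By levels, where line differences dominate, CCNE1 was nearest to MRPL49 (0.98), TRMT112 (0.97) and TMEM109 (0.97), and CCNA2 to ARHGDIA (0.94), DCTPP1 (0.93) and CHID1 (0.92). CCNB1 was nearest to FOXRED2 (0.87), EMC8 (0.86) and CABLES2 (0.86) among the genes ranked. Of the genes left out of the ranking, CCNF was nearer to CCNB1 by levels (0.90) than FOXRED2, and PLK1 stood at 0.86. CCNF was nearest to FOXRED2 (0.95), DONSON (0.94) and TOMM40 (0.94), and PLK1 to MYBL2 (0.93), DCXR (0.90) and PUDP (0.87). The r values carry no test, and each array enters all of them.

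The partners of the 5 genes were tested, with the reserve that they share these arrays. Of 111 other cell cycle genes in 7 lists, 89 were tested. For the mean of 4 lines (limma, adjusted p under 0.05), 42 fell and 7 rose, 47.2% and 7.87% of them, against 16.1% and 16.3% of all genes. Their median change was -0.08, against -0.01 for all genes. Per line 31 fell in HL60 (34.8%, against 9.56% of all genes), 23 in MOLM14 (25.8%, against 2.57%), 18 in U937 (20.2%, against 9.74%) and 2 in KG1a (2.25%, against 1.67%). The share in KG1a was near its background and is no result about the partners. In HL60 6 rose (15.5% of all genes did), in U937 2 (7.46%), and in KG1a (0.818%) and MOLM14 (2.48%) none. The MOLM14 count was 10 without control A, 11 without metformin B, 14 without metformin C and 15 without control B or metformin A. For KG1a it was 5 without the 3 arrays that stand apart, although none of those is from KG1a, 0 without its control C or metformin A, 1 without any of 15 other single arrays, and 3 without any of 4 more. Of the 89 genes, E2F8 fell in all 4 lines, as 0.226% of all genes did. In 3 lines 8 fell (CCND3, CDC25A, CDC20, CDC6, E2F2, INCENP, PLK2 and RRM2). The share of all genes that fell in 3 lines was not computed, so nothing is read from that count. The KG1a call of E2F8, on which its fall in all 4 lines rests, was marginal (adjusted p = 0.0479, limma). It was lost at 0.01, in a fit of KG1a alone, and without KG1a control C or metformin A. That list is not complete. The KG1a count was also 1 instead of 2 with centred arrays, with no filter and with the replicate letter as a block. It was 1 without any of 15 single arrays as well. Which gene was lost in those settings is not given here, so the E2F8 call may fail in many of them.

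Among 19 other cyclins, 4 fell and 2 rose for the mean of 4 lines, and the list's median was -0.01. These shares, 21.1% and 10.5%, were near the 16.1% and 16.3% of all genes. CCNE2, the second E-type cyclin, fell by 0.64 ± 0.07 (adjusted p = 1.19e-07, limma). By line it read 7.53 untreated and 6.63 treated in U937 and 6.37 against 5.28 in HL60, and both changes passed (-0.91 and -1.09). In KG1a it changed by -0.14 and in MOLM14 by -0.44, and neither passed. CCND3, a D-type cyclin of G1, fell by 0.34 ± 0.05. CCNB2, the close relative of CCNB1, fell by 0.13 ± 0.05 (adjusted p = 0.0298, limma), passing in MOLM14 (-0.33) and in no other line. Its call on the mean was lost without any 1 of 8 arrays and with centred arrays (adjusted p = 0.0684, limma). CCND2 rose in HL60 (0.39) and fell in U937 (-0.31), and CCND1 did not pass (-0.02 ± 0.05). CCNG1 (0.21 ± 0.04) and CCNI (0.14 ± 0.05), cyclins outside the core cycle, rose.

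Of 10 CDKs and CDK activators 5 fell (50%, against 16.1% of all genes) and none rose (16.3% of all genes did), with a median of -0.08. CDK2, the partner of cyclins E and A, fell by 0.35 ± 0.04 (adjusted p = 1.18e-06, limma), and the phosphatase CDC25A, which activates it, fell by 0.41 ± 0.05. CKS2, a small CDK-binding subunit, fell by 0.37 ± 0.05. CDK1, the partner of cyclin B1, fell by 0.19 ± 0.04 on the mean, and by line it passed in HL60 only (-0.37). Of the CDK inhibitors 3 of 10 were tested: CDKN3, a phosphatase that acts on CDKs, fell by 0.24 ± 0.05, and WEE1 (-0.10 ± 0.04) and CDKN2A (0.04 ± 0.06) did not pass. WEE1 passed with quantile normalization (-0.11) and without HL60 control C or MOLM14 metformin C (both -0.12). CDKN1A and CDKN1B are not analysed here.

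Of 15 other mitotic kinases and partners, 12 fell and none rose for the mean of 4 lines, with a median of -0.20. The share that fell was 80%, against 16.1% of all genes, and 16.3% of all genes rose. INCENP, the scaffold of the Aurora B complex, fell by 0.28 ± 0.04 (adjusted p = 4.38e-06, limma), AURKB itself fell by 0.22 ± 0.04, and the checkpoint kinase BUB1 fell by 0.24 ± 0.04. BUB1 stood at 9.88 in both groups of U937 and fell in HL60 (-0.41) and MOLM14 (-0.30). PLK2, a stress-responsive relative of PLK1, fell by 0.27 ± 0.04, but its levels lay between 3.64 and 4.68, around the median of all rows (4.02). AURKA, an activating kinase of PLK1, did not pass (-0.05 ± 0.06). Per line, 9 of these 15 fell in MOLM14, 8 in HL60, 2 in U937 and 1 (PLK2) in KG1a. The shares were 60.0% in MOLM14, against 2.57% of all genes, and 53.3% in HL60, against 9.56%, while 13.3% in U937 was near its 9.74%. In KG1a the share was 6.67%, against 1.67%. It rests on PLK2 alone, which lay around the median of all rows there (4.39 untreated, 3.98 treated).

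Of 20 genes of cyclin degradation and mitotic exit, 8 fell (40%, against 16.1% of all genes) and 3 rose, with a median of -0.06. CDC20, which directs the anaphase-promoting complex to cyclin B1, fell by 0.41 ± 0.04 (adjusted p = 4.77e-08, limma), and the checkpoint protein MAD2L1 fell by 0.27 ± 0.05. Of 11 subunits of that complex tested, CDC16 rose by 0.19 ± 0.03 and ANAPC4 by 0.14 ± 0.05 (adjusted p = 0.0486, limma), and the other 9 did not pass. The share of the list that rose, 15.0%, was near the 16.3% of all genes. The ANAPC4 call was lost in 21 of the 33 other settings. SKP1, the adaptor that links cyclin F to its ligase, rose by 0.23 ± 0.07. Of 6 substrates of cyclin F, 5 fell (83.3%, against 16.1% of all genes), with a median of -0.32. These were CDC6 (-0.55 ± 0.04), which loads the replicative helicase, RRM2 (-0.52 ± 0.04), SLBP (-0.35 ± 0.04), which processes histone messages, EXO1 and NUSAP1.

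Of 16 E2F, MuvB and FOXM1 factors, 7 fell and 2 rose (43.8% and 12.5%, against 16.1% and 16.3% of all genes), with a median of -0.06. The share that rose was not above that of all genes and is no result about the list. E2F8 (-0.68 ± 0.04, adjusted p = 2.69e-11, limma) and E2F7 (-0.54 ± 0.05), the repressor E2Fs, fell most. MYBL2 fell by 0.40 ± 0.04, E2F1 fell by 0.27 ± 0.05 and FOXM1 fell by 0.22 ± 0.05. The pocket proteins RBL2 (0.27 ± 0.04) and RB1 (0.12 ± 0.04), which hold E2Fs in check, rose, and the third, RBL1, did not pass (0.01 ± 0.05, adjusted p = 0.906, limma). RB1 did not pass without the 3 arrays that stand apart (0.09, adjusted p = 0.138, limma), and 10 single arrays each decided its call.

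**Figure D4:**
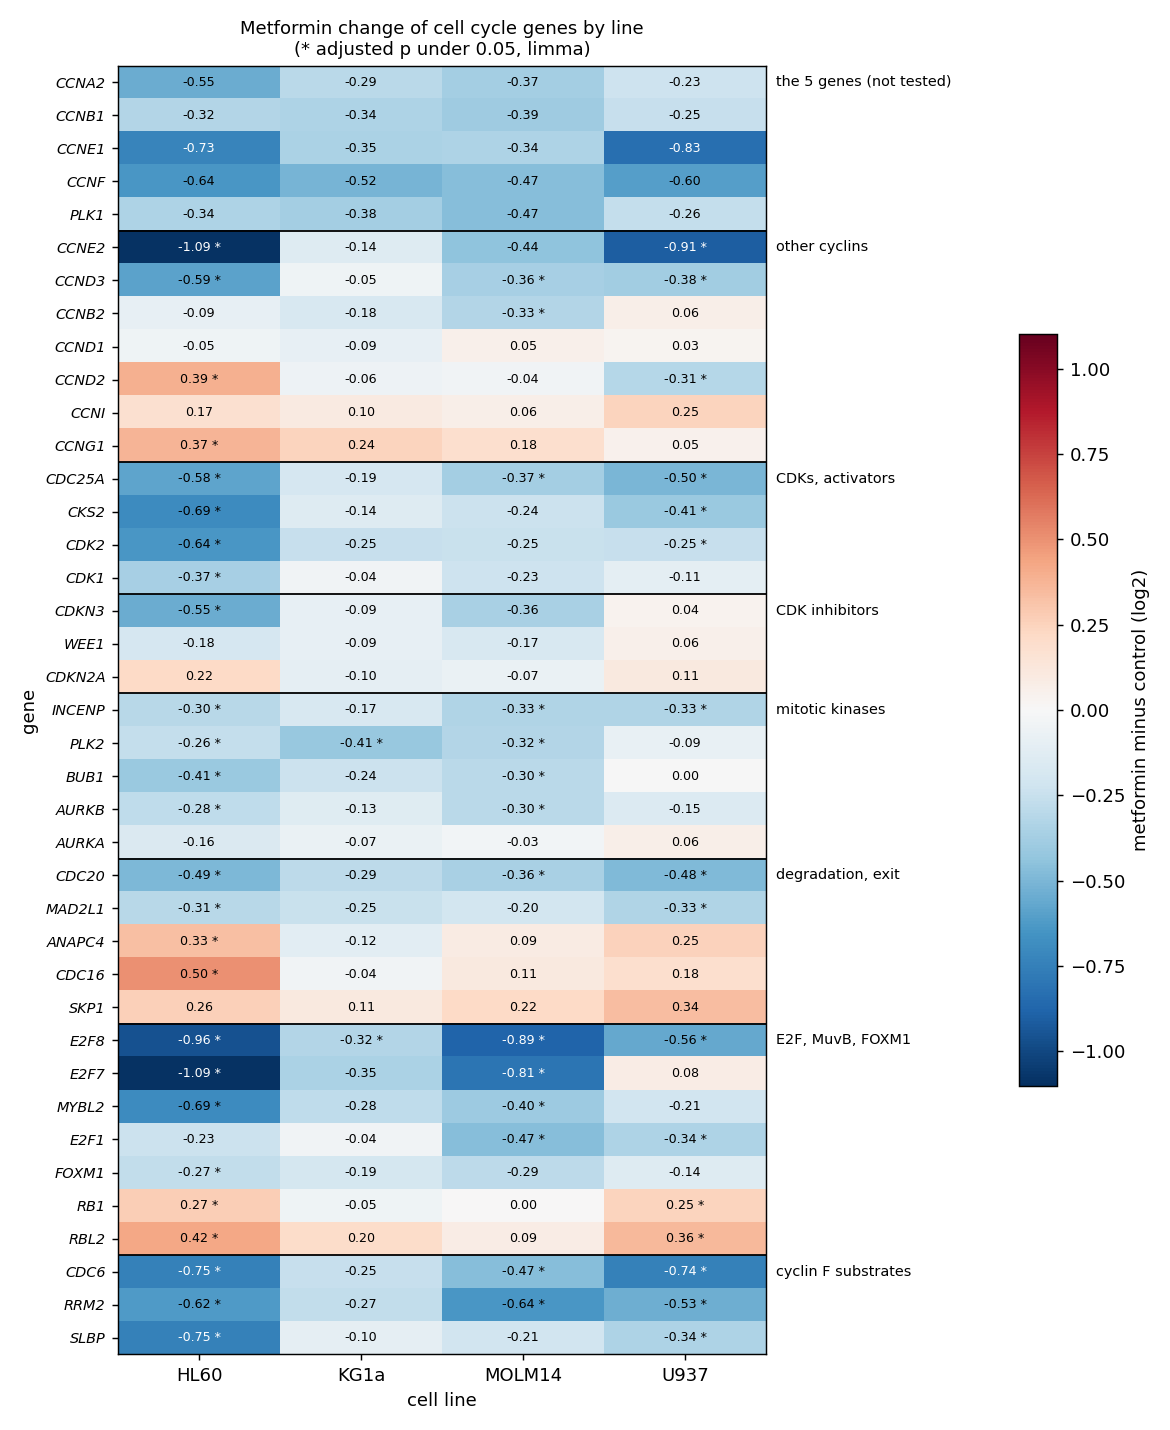
Metformin minus control (log2, colour and number) in each line (columns) for the 5 genes and the named partner genes (rows, by list); an asterisk marks adjusted p under 0.05 in limma, and the 5 genes carry none because they were not tested. CCNE2 was marked in HL60 and U937, CDC6 and CDC25A also in MOLM14, BUB1 and AURKB in HL60 and MOLM14, and KG1a was marked for E2F8 and PLK2 alone.

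The change of 16 of the 89 partner genes differed between the 4 lines (moderated F test), 18.0% against 10.0% of all genes, and of 10 with arrays centred on their medians. CCNE2 was among the 16 (adjusted p = 0.00515, limma), with the larger falls in HL60 and U937, the lines in which the CCNE1 difference was also larger. CDC6 (adjusted p = 0.0219) changed by -0.75 in HL60, -0.74 in U937, -0.47 in MOLM14 and -0.25 in KG1a, and the first 3 passed. E2F7 differed most (adjusted p = 2.23e-05, limma), with falls of -1.09 in HL60 and -0.81 in MOLM14. In U937 it lay at 3.59 and 3.67, under the median of all rows.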

How the data were processed

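The deposited table gives 1 value per row and array, read here as log2 because the values run from 1.88 to 14.19; no source states the authors' log base. Biotin-labelled cRNA was made from 250 ng of total RNA, per the labels' protocols, and the submitters' processing notes list Partek. For background correction, normalization and build, the method is not given in the sources used here. Of 53617 rows, 16098 name 1 gene in the platform annotation, 0 name several and 37519 are unnamed here. All 16098 gene identifiers matched RefSeq (GRCh38.p14). The row with the highest mean stood for a gene, and 10641 genes with at least 1 group mean at or above 4.02 (the median over all rows) were kept. limma 3.58.1 (R 4.3.3) fitted 8 group means (16 residual degrees of freedom), with Benjamini-Hochberg adjustment and a threshold of 0.05.

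The 5 genes, the lists and the naming rule were chosen with earlier results of these data known. Named partners are a fixed set, the 3 smallest adjusted p per list, those opposite to their list, and the 3 nearest patterns per gene. EXO1, NUSAP1, E2F2 and RBL1 were named outside this rule, after their values were seen. In simulated data, changes of 0.5 (log2) were planted in 100 of 10641 genes. They were recovered for 100% on the mean of 4 lines and for 80% in KG1a. The same data held changes of 1 in 100 other genes, and noise was drawn independently for each gene and array. Each planted change was the same in every line, and none under 0.5 was simulated. These shares therefore do not cover changes of the size of the KG1a partner median (-0.11). No 2 arrays of a group were duplicates (at most 5 identical rows). Same-letter arrays of a line did not deviate together (correlations -0.06 to 0.15), so letters were not taken as pairs. Promoters came from RefSeq windows. Figures used matplotlib 3.10.9.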

Additional observations from a re-analysis of the deposited data

Results flagged for a closer look

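The metformin change of 11 of the 34 named partner genes differed between the 4 lines in a moderated F test (limma, Benjamini-Hochberg over all genes), as it did for 10.0% of all genes. Most of the 34 were named for a small adjusted p on these same arrays, so the 2 shares cannot be compared. By adjusted p these were E2F7 (2.23e-05), CCND2 (0.00141), CDC16 (0.00208), E2F8 (0.00296), SLBP (0.00355), CCNE2 (0.00515), CDC6 (0.0219), MYBL2 (0.0222), CDKN3 (0.0385), CCND3 (0.0388) and BUB1 (0.04). CCND2 changed by 0.39 in HL60 and -0.31 in U937. CDC16 rose in HL60 (0.50) and changed by -0.04 in KG1a. SLBP fell by 0.75 in HL60 and changed by -0.10 in KG1a. MYBL2 fell by 0.69 in HL60 and changed by -0.21 in U937. CDKN3 fell by 0.55 in HL60 and stood at 0.04 in U937. Single outlying arrays were not tested within groups of 3.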

How the results depend on the processing

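All 5 genes kept a difference between untreated lines in each of the 33 other settings. The 20 metformin differences ran from -0.89 to -0.15 over those settings; their sign was fixed by the choice of genes and is no sign of stability. The number of the 5 genes that differed between untreated classes was 1 to 2 without single arrays and 1 at an adjusted p of 0.01; without the 3 arrays that stand apart, or without HL60 control C alone, it was 2, with CCNF in place of CCNE1. The number of partner genes that fell, without single arrays, was 39 to 42 for the mean of 4 lines, 24 to 33 in HL60, 0 to 3 in KG1a, 10 to 27 in MOLM14 and 14 to 19 in U937. The number whose change differed between lines was 11 to 17 without single arrays, 10 with centred arrays and 6 at 0.01. In KG1a 1 gene fell with centred arrays, with no filter and at 0.01, 5 with a trend in the moderation and 5 without the 3 arrays that stand apart, and 0 in a fit of KG1a alone. In MOLM14 10 fell at 0.01, and in U937 9 in a fit of that line alone. The threshold of 0.01 changes only the cut, and a fit of 1 line alone has fewer arrays. The cause of the other moves was not tested. With the replicate letter as a block the counts were 41 for the mean, 30 in HL60, 1 in KG1a, 21 in MOLM14 and 18 in U937. Of 24 arrays, 12 correlated best with their own letter in the other treatment. Of 34 named partners, 29 kept their call for the mean of 4 lines in every setting. The exceptions were ANAPC4, CCNB2, CCNI, RB1 and WEE1. The deposited table holds no background signal, so detection per array was not assessed.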
